A study of Homo sapiens with 76 samples.

Results

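The genes described here encode the proteins of the cytosolic small ribosomal subunit. They were chosen by name, as the rows whose symbol is RPS followed by a number (with or without a final A, L or X), together with RPSA and FAU. The rule took 35 of the 17513 gene rows. The data are counts of unique molecular identifiers (UMIs), random tags that let the copies of 1 cDNA molecule be counted once, in 76 single cells of HEK293. HEK293 is an established human embryonic kidney line transformed with adenovirus DNA, and the labels describe untreated cells grown in DMEM with glutamine and 10% fetal calf serum. The cells were captured on a Fluidigm C1 chip and lysed with 20000 spike-in RNA molecules each, and 5' ends of polyadenylated RNA were sequenced in 1 Ion Torrent Proton run.

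The labels give 1 group, with no treatment, genotype or time to compare and no separate cultures named. The cells therefore count as 1 sample. Every SD and correlation below describes the spread among these 76 cells, and no test was made. Cells gave 7305 to 43392 endogenous UMIs, with a median of 20966, and 1390 to 3132 spike-in UMIs. HEK293 has no agreed set of markers. The keratin gene KRT18 was seen in 45 cells and KRT8 in 19. Of neuronal genes, the hydrolase gene UCHL1 was seen in 70 cells, NEFM in 49 and NEFL in 26. Of markers of cell types the line should lack, HBA1 gave 5 UMIs in 5 cells and COL1A1 12 UMIs in 8. MYH11 gave 3 UMIs in 3 cells and APOA1 1 UMI in 1. The other markers looked for, PTPRC, CD3E, HBB, CD14, COL1A2, DCN, ALB and FGB, had no row among the counts.

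The small subunit is the part of the ribosome that binds messenger RNA, scans it for the start codon and matches each codon with a transfer RNA. Its proteins surround 1 ribosomal RNA and are built in at 1 copy each, in a particle with a head, a body, a platform and a channel through which the messenger RNA enters and leaves. Messenger RNAs of ribosomal proteins are among the most abundant of growing cells. They typically begin with a C followed by a run of pyrimidines, the terminal oligopyrimidine tract, through which the mTOR kinase and the RNA-binding protein LARP1 control their translation.

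The start regions of the members are shown because this assay counts 5' ends and because the tract lies there. RefSeq start regions (build GRCh38.p14) were matched by symbol for 26 of the 35 members. Each line gives 30 bases, 10 before the annotated start and 20 from it, with capitals for a C followed by at least 4 further C or T that begins within 10 bases of the start. Where several runs meet this, the capitals mark the 1 that begins nearest the start, and the others are in lower case.
RPS27: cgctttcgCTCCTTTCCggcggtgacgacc
RPS19: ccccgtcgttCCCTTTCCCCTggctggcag
RPS3: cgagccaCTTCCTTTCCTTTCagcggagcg
RPS18: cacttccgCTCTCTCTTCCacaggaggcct
RPS14: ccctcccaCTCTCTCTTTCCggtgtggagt
RPS6: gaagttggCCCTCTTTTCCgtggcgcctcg
RPS24: aatcgtggttCTCTTTTCCTCCTTggctgt
RPS9: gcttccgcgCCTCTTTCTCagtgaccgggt
RPS29: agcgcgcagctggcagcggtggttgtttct
RPS27L: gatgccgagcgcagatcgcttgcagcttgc
The first 7 belong to abundant members spread over the subunit, RPS9 is a low member, and RPS29 and RPS27L hold no such tract in this window. Their places are chr1:153990752-153990781 (plus strand) for RPS27, chr19:41860245-41860274 (plus) for RPS19 and chr11:75399508-75399537 (plus) for RPS3. RPS18 lies at chr6:33272065-33272094 (plus), RPS14 at chr5:150449720-150449749 (minus), RPS6 at chr9:19380217-19380246 (minus) and RPS24 at chr10:78033853-78033882 (plus). RPS9 lies at chr19:54200848-54200877 (plus), RPS29 at chr14:49598691-49598720 (minus) and RPS27L at chr15:63157458-63157487 (minus). RPS19 has a further annotated start, which is not printed.

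Read on the strand with the same sense as the transcript, a tract was found in 23 of the 26 members matched (88.5%). The same letters were found in 36 of 41 large subunit genes (87.8%), in 29 of 49 other protein coding genes with a mean of at least 20 UMIs per cell (59.2%) and in 41.1% of all 15843 protein coding genes with a RefSeq start region. Reading from the start base or one of the next 3 bases, whether or not a longer run had begun before it, such a C with at least 4 further C or T was found in 20 of 26 members (76.9%). The same count was 31 of 41 large subunit genes (75.6%), 20 of 49 other abundant genes (40.8%) and 15.5% of all protein coding genes. The letters CCGGAAG, part of the site of ETS family factors, lay on either strand of the 300-base region in 10 of 26 members (38.5%), in 34.1% of large subunit genes, in 32.7% of the other abundant genes and in 16.5% of all protein coding genes. AAGATGG, the core of the YY1 site, lay on either strand in 4 members (15.4%), in 18.4% of the other abundant genes and in 7.90% of protein coding genes, and it can overlap a start codon. TATAA was found 15 to 40 bases before the start in 4 members (RPS27, RPS18, RPS28 and RPS9), or 15.4%, against 24.5% of the other abundant genes and 6.73% of protein coding genes. For these 3 motifs the members' shares thus lay within 10 points of those of other abundant genes, or below them. The 3 matched members with no tract in the window ran from 4.57 (RPS27L) to 112 (RPS29) mean UMIs per cell, with RPS4X between them at 89.97, so members without these letters stood at both ends of the order of levels. A match of letters is a description of the reference sequence and not of these cells.

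Small subunit genes took 10.9% ± 1.202 of a cell's endogenous UMIs (mean ± SD over cells). The lowest cell had 6.80%, the median 11.1% and the highest 14.2%. In all they gave 182504 UMIs, a pooled share of 10.79% (exact 95% binomial interval 10.74% to 10.83%, counting error only). Large subunit genes (53 rows) gave 309587 UMIs and 18.6% ± 2.06 of a cell's UMIs, from 12.1% to 22.6%. Of the 35 small subunit rows, 30 had a UMI in each of the 76 cells, where 1.78% of all gene rows did. For large subunit genes the count was 47 of 53. RPS9 was seen in 75 cells, RPS27L in 73 and RPS10L in 2. A cell held UMIs of 31 to 33 of the rows.

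Since 1 UMI stands for 1 tagged 5' end whatever the length of the transcript, levels of different genes are compared as UMIs per cell and not per length. Among the 32 members whose mean reached 1 UMI, mean UMIs per cell showed little relation to coding length (Spearman rho = 0.0840 over 32 genes, 168 to 885 bases) or to the GC content of the coding sequence (rho = -0.0565, 42.1% to 62.99%), taken from principal transcripts of GENCODE 29. Mean levels of these 32 ran from 4.57 to 161 UMIs, with a median of 76.6, and 27 of them reached 40. The 10 highest held 47.1% of small subunit UMIs. Of 31 pairs of neighbours in the order of levels, 20 had overlapping exact Poisson intervals, so much of the order in the middle is within counting error.

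**Figure D1:**
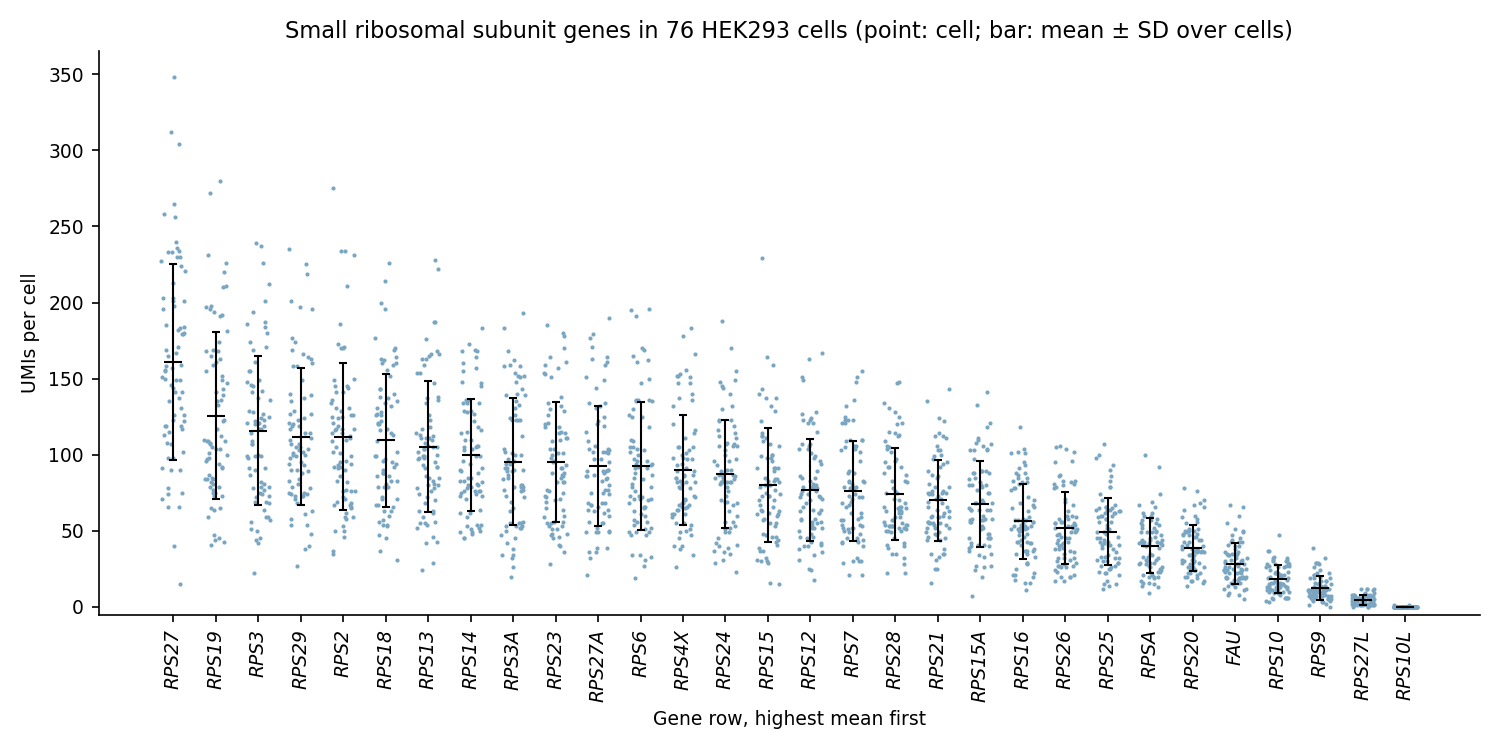
UMIs per cell (vertical axis) of 30 of the small subunit rows, ordered by mean. Points are cells and bars are the mean ± SD over 76 cells. RPS27 stands highest at a mean of 161, most members lie between 40 and 126, and RPS10L lies at the floor.

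On the platform and mRNA exit side, RPS27 was the most abundant member. RPS27 is a zinc-binding protein of the platform, and its row gave 15 UMIs in the lowest cell, 155.5 in the median and 348 in the highest. It was the highest member, or tied for it, in 54 cells, RPS19 in 9, and RPS3 and RPS2 in 5 each. It exceeded RPS19, the next in order, in 62 cells and fell under it in 13, and their Poisson intervals did not overlap (12021 to 12456 and 9364 to 9749 UMIs in all). RPS13 and RPS14, both bound to ribosomal RNA at the platform, gave 24, 99.5 and 228 UMIs (RPS13) and 45, 92.5 and 183 UMIs (RPS14) in the lowest, median and highest cell. RPS14 is the gene whose loss on the long arm of chromosome 5 underlies the anaemia of the 5q- syndrome. RPS3A had a mean of 95.5 UMIs, RPS7 76.4, RPS28 74.1, RPS21 69.97 and RPS15A 67.9. RPS26, which contacts messenger RNA at the exit and is mutated in some cases of Diamond-Blackfan anaemia, had 51.9 and RPSA, also known as the laminin receptor gene, 40.3. These platform members, with RPS27L, took 4.06% ± 0.534 of a cell's UMIs.

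RPS27L, a paralog of RPS27 known as a target of p53, was by far lower than its partner. Its lowest cell had 0 UMIs, its median 4 and its highest 12. In 3 of the 76 cells it gave no UMI, and 96.1% of cells had at least 1 (exact binomial bounds 88.9% and 99.2%). Summed over cells RPS27 gave 12237 UMIs and RPS27L 347, a ratio of 35.3. The highest count of RPS27L (12) lay under the lowest count of RPS27 (15), so the values did not overlap.

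In the head, RPS19 led with 41 UMIs in the lowest cell, 109 in the median and 280 in the highest. RPS19 is the gene most often mutated in Diamond-Blackfan anaemia. RPS29, a small zinc-binding protein, had 27, 104.5 and 235 UMIs, and RPS18 31, 100.5 and 226. Their Poisson intervals (8331 to 8694 and 8139 to 8498 UMIs in all) overlapped each other and those of RPS2. RPS27A, made as a fusion of ubiquitin with a ribosomal protein, had a mean of 92.8 UMIs, RPS15 80.1, RPS12 76.8, RPS16 56.3, RPS25 49.4 and RPS20 38.7. RPS10 was the lowest of the members seen in each cell, with 3, 16 and 47 UMIs. RPS10 and RPS20 are the proteins that ZNF598 marks with ubiquitin when ribosomes collide. RPS27 exceeded RPS10 by 8.82 times in summed UMIs. Head members took 3.46% ± 0.438 of a cell's UMIs.

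On the mRNA entry and decoding side, 3 members were abundant and RPS9 and FAU were low. RPS3 and RPS2 line the entry of the channel, and RPS3 gave 22, 115.5 and 239 UMIs in the lowest, median and highest cell, and RPS2 35, 109.5 and 275. RPS23, whose loop reaches the decoding centre, had 28, 91 and 185 UMIs. FAU, made as a fusion with a ubiquitin-like protein, had a mean of 28.5 UMIs, 5 to 67. RPS9, which shares the entry side with RPS2 and RPS3, had 0 UMIs in the lowest cell, 10 in the median and 39 in the highest. A single cell had no UMI of it, so 98.7% of cells had at least 1 (exact binomial bounds 92.9% and 99.97%), and its sum of 938 UMIs was 13.05 times under that of RPS27. These 5 members took 1.67% ± 0.297 of a cell's UMIs.

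In the body, RPS6, RPS4X and RPS24 had means between 87.5 and 92.7 UMIs. RPS6, the protein that S6 kinases phosphorylate, had a mean of 92.7 UMIs (19 to 196), and RPS4X, encoded on the X chromosome, 89.97 (26 to 183). RPS24, mutated in some cases of Diamond-Blackfan anaemia, had 87.5 (23 to 188). The intervals of RPS6 and RPS4X, and of RPS4X and RPS24, overlapped. Body members took 1.76% ± 0.185 of a cell's UMIs. As a share of small subunit UMIs, head members varied by a coefficient of variation (CV) of 4.29% between cells, platform members by 6.11%, body members by 10.6% and entry side members by 13.1%. Body and entry side hold 5 members each, and head and platform 12 each, so the sums of the body and the entry side rest on fewer genes.

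The row RPS10L held almost no counts. RefSeq, on GRCh38.p14, gives RPS10L as a synonym of the pseudogene RPS10P5 on chromosome 20. It had 2 UMIs in 2 cells (exact 95% Poisson interval for the sum 0.242 to 7.22), so it is a member by its symbol alone. How reads that match more than 1 row were counted is not given in the sources used here.

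Rows named as pseudogenes of small subunit genes took some of the counts. Of 118 such rows 113 had a UMI, and they gave 7026 UMIs, equal to 3.85% of those of the members. The 6 highest rows held 72.0% of them. RPS2P46, a processed copy on chromosome 17, gave 6 UMIs in its lowest cell, 26.5 in its median and 79 in its highest, and its share varied with that of RPS2 (rho = 0.735 over 76 cells), which is above the rho of any member with RPS2. The 13 pseudogene rows of RPS2 held 28.5% of the UMIs of RPS2 and these rows together. For RPS26 the figure was 15.4%, for RPS7 13.4%, for RPS3A 10.4% and for RPS15A 4.28%, and for RPS27, RPS6 and RPS12 it was under 0.1%. With pseudogene UMIs added to the parent, RPS2 moved from place 5 to place 2 (11876 UMIs), and RPS27 stayed first. Whether these UMIs came from copies or from the parent genes was not tested.

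**Figure D2:**
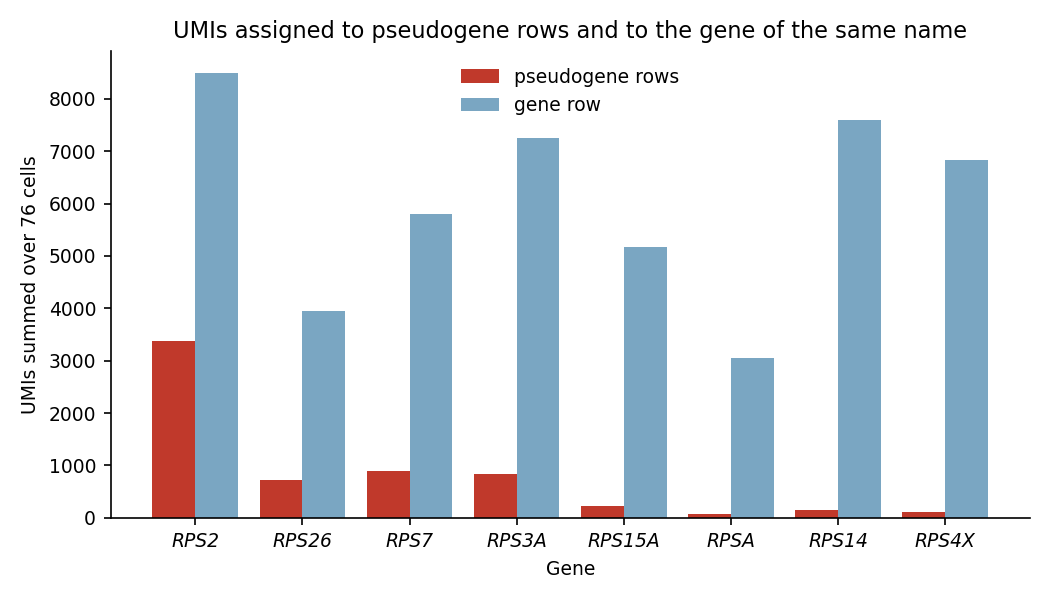
UMIs summed over 76 cells in pseudogene rows (left bar) and in the gene row of the same name (right bar), for 8 genes with a large pseudogene part. RPS2 has 3382 UMIs in pseudogene rows and 8494 in its own row.

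Small and large subunit shares moved together from cell to cell. Across 76 cells the Spearman rho was 0.895 and Pearson r 0.924, or 0.907 without the 2 cells farthest from the median large subunit share. Both shares are taken of the same total, so part of this is shared by construction. Per spike-in UMI, rho was 0.987, and per UMI of rows other than ribosomal protein and mitochondrial genes, pseudogene rows included, 0.948. The ratio of small to large subunit UMIs had a median of 0.590 and ranged from 0.516 to 0.646. Its CV of 4.26% compares with 2.78% from counting noise alone and leaves 3.23% beyond it. The small subunit share had a CV of 10.98% and the large subunit share 11.05%.

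The small subunit share was lower in cells with more UMIs (rho = -0.378, r = -0.324, and r = -0.330 without 2 cells, 76 cells). The large subunit share showed the same sign (rho = -0.484, r = -0.419). Per spike-in UMI, small subunit counts were instead higher in cells with more UMIs (rho = 0.837). On this scale a cell's RNA content, and any capture not shared by its spike-ins, enter both measures. Small subunit UMIs per spike-in UMI ran from 0.411 to 2.26 with a median of 1.04 and a CV of 33.2%, close to the 35.3% of all endogenous UMIs per spike-in UMI. Fewer molecules and lower capture in a cell cannot be told apart in such counts. Of the 32 members, 24 had a negative rho of share with cell UMIs, from -0.410 (RPS14) to 0.151 (RPS6), with a median of -0.125. The mitochondrial share and the small subunit share had a rho of -0.242, and the cell's number in its title and the small subunit share 0.164.

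**Figure D3:**
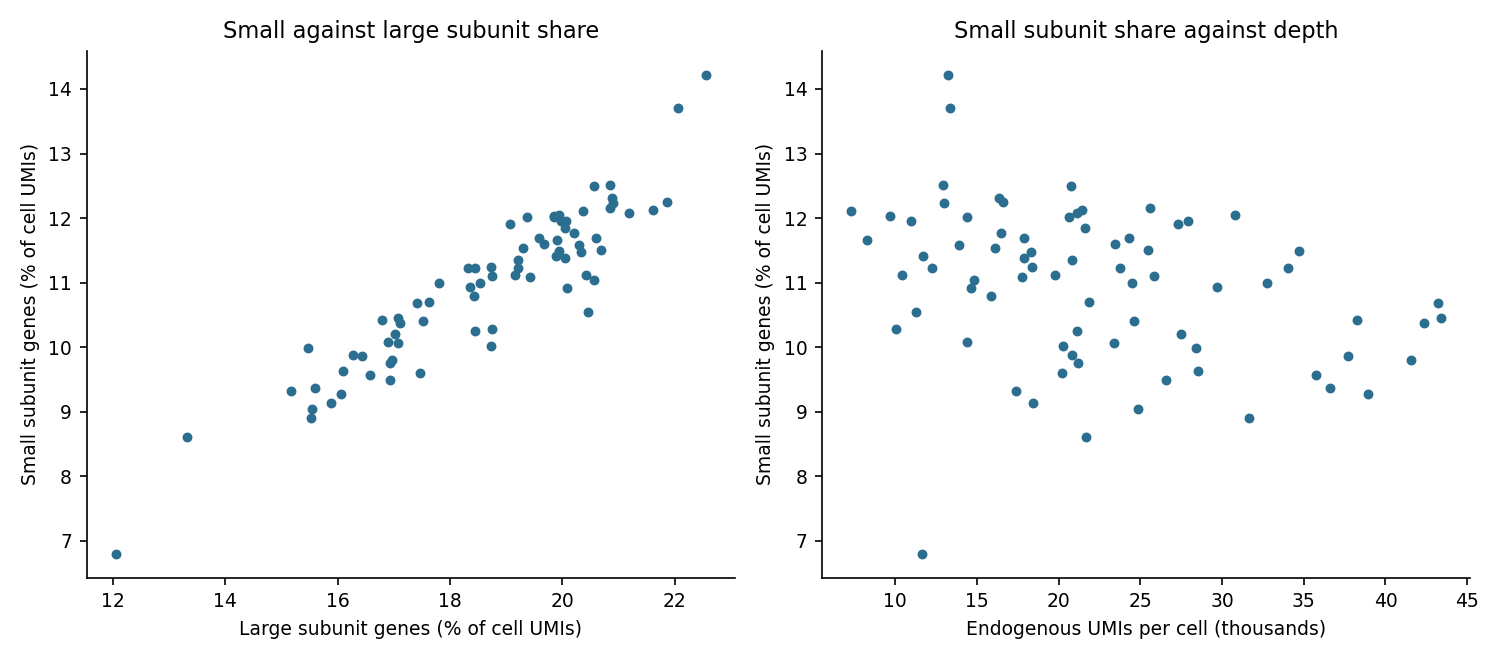
Left, small subunit share (vertical, % of cell UMIs) against large subunit share (horizontal, % of cell UMIs). Right, small subunit share against endogenous UMIs per cell. Each point is 1 of 76 cells. Points on the left lie along a line, and the cell at 6.80% stands apart at its lower end.

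A single cell stood apart at the low end. Cell number 16 had a small subunit share of 6.80%, where the next lowest cell had 8.60%, and a large subunit share of 12.1%, with 11620 UMIs and a mitochondrial share of 8.88% (median over cells 5.97%). There, 27 of 32 members lay below their own median share and 14 at their lowest share of any cell. The cell is described because its sum was lowest, so low shares of many members are part of that choice. RPS27 gave 15 UMIs in it and RPS15A 7, the lowest counts of these genes. RPS4X and RPS2 had 61 and 59 UMIs in the same cell, more than RPS27 in it. Without this cell the mean small subunit share was 10.999%. Cell number 36, at the other end, had 14.2% small and 22.6% large subunit UMIs, 13213 UMIs in all and a mitochondrial share of 2.32%.

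Single members varied by different amounts. The spread was measured as the Pearson dispersion. It compares each count with the one a constant share would give at that cell's depth, and it is near 1 where counting noise is the sole source of spread. A gene was called variable when it lay above the highest spike-in RNA (2.196), since spike-ins are added in equal amount to each cell. By this limit 28 of 32 members tested were called, where 21.6% of the 2810 genes tested were. Dispersion grows with abundance, and among all 168 genes with a mean of at least 20 UMIs, members included, 85.7% were called, against 27 of 29 members. The members' share is thus near that of all genes above this level, which were not matched to the members in abundance. For large subunit genes the count was 41 of 51. RPS14 lay just above the limit (2.197) and RPS27L just below it (1.99), and RPS10, FAU and RPS16 were the others not called.

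**Figure D4:**
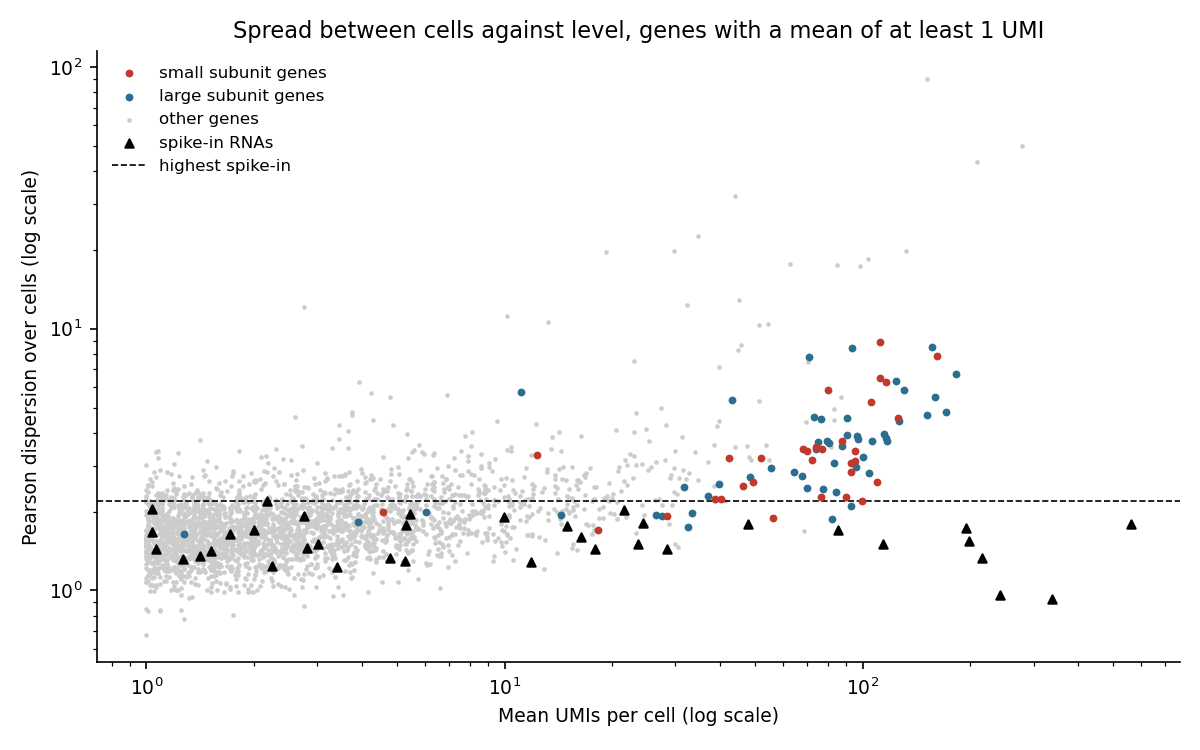
Pearson dispersion over 76 cells (vertical, log scale) against mean UMIs per cell (horizontal, log scale) for small subunit genes, large subunit genes, other genes and spike-in RNAs with a mean of at least 1 UMI. The dashed line is the highest spike-in at 2.20, and small subunit genes lie between 1.70 and 8.88, among the large subunit genes of equal level.

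RPS29 had the highest dispersion of the members, 8.88. Its share of a cell's UMIs ran from 0.232% to 0.884%. RPS27 followed at 7.89 (0.129% to 1.17%), then RPS2 at 6.47, RPS3 at 6.26, RPS15 at 5.83 and RPS13 at 5.26. Set against the mean, the CV beyond counting noise was 26.5% for RPS29, 24.6% for RPS15 and 22.1% for RPS2, and it was smallest for RPS14 (10.95%), RPS4X (11.9%) and RPS18 (12.1%). The low members RPS27L, at 46.6%, and RPS9, at 43.2%, lay above all of these. Spike-ins of low level also had larger values than abundant ones. Near the level of RPS27L, ERCC-00092 (mean 5.29 UMIs) had 23.7% and ERCC-00076 (5.45) 42.1%. Nearer the level of RPS9, ERCC-00043 (11.8) had 15.5% and ERCC-00022 (9.99) 30.2%. RPS27L was not called variable by the spike-in limit. Over the 29 members with a mean of at least 20 UMIs the median was 17.9%, beside 17.2% for 46 large subunit genes, 26.3% for 93 other genes and 6.67% for 13 spike-ins. These 93 are all remaining rows of that level, pseudogene rows such as RPS2P46 included. When the expectation came from the cell's small subunit UMIs in place of all UMIs, the median of the 29 members was 13.7%, and 27 of them were lower than before.

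Members' shares were mostly positively related to each other. Over 496 pairs of 32 members the median Spearman rho was 0.176, and 85.1% of pairs were above 0. The median depended on the scale, and was 0.2998 against totals outside ribosomal protein and mitochondrial genes and 0.696 per spike-in UMI. All points come from the same 76 libraries and share their depth. Among large subunit genes the median was 0.180, between small and large subunit genes 0.184, between small subunit genes and 93 other genes of a mean of at least 20 UMIs 0.0526, and among those other genes 0.0372. The 93 other genes include the pseudogene row RPS2P46, whose rho with RPS2 was 0.735. Spike-ins of that level had -0.0596. On the scale of shares, small subunit genes were thus as close to large subunit genes as to each other.

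The closest pair was RPS27 with RPS29 (rho = 0.605), and RPS27 with RPS13 followed (0.560). Both RPS27 and RPS29 encode short proteins that bind zinc, but a relation of zinc binding to rho was not tested. RPS27L, the low paralog of RPS27, had -0.0652 with RPS27 and 0.0120 with RPS29. RPS19 and RPS18, both of the head, had 0.556, and RPS12 and RPS28 0.540. Other pairs of the head were lower, such as RPS19 with RPS29 (0.00544) and RPS15 with RPS25 (-0.128). RPS3 with RPS2 had 0.528, RPS2 with RPS9 0.526, RPS3 with RPS15 0.522 and RPS3 with RPS9 0.512. The other entry side members, RPS23 and FAU, had lower values with these genes, such as 0.0166 for RPS2 with RPS23 and 0.244 for RPS3 with FAU. The 8 pairs above 0.5, all given here, were 1.61% of pairs, against 2.76% of pairs between small and large subunit genes. Towards the other end stood RPS2 with RPS7 (-0.246) and RPS3 with RPS7 (-0.217).

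**Figure D5:**
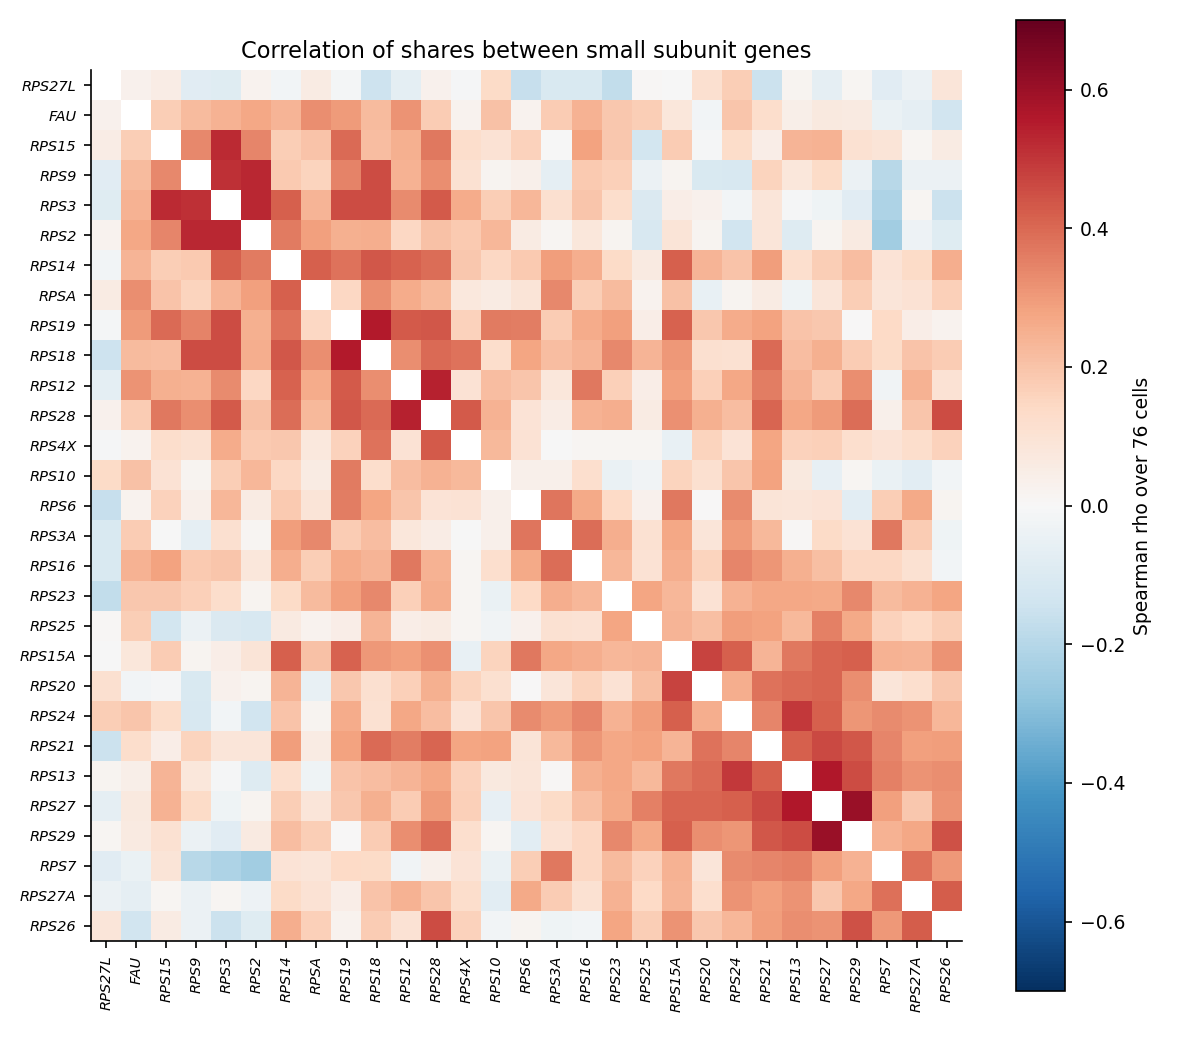
Spearman rho of the shares of each pair of 29 small subunit genes over 76 cells, with genes ordered by average linkage. Blocks of higher rho hold RPS2, RPS3, RPS9 and RPS15, and RPS13, RPS24, RPS27 and RPS29, and the row of RPS27L is near 0.

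By median rho with the other members, RPS19 and RPS21 (0.283 each) and RPS28 (0.256) were the most typical and RPS27L (-0.0189) the least. Taken with the summed rest of the small subunit, RPS28 had the highest rho (0.627), RPS18 had 0.601, RPS15A 0.572 and RPS27L -0.0291. Low counts limit what a rho of RPS27L can show. Base composition moved with these values: pairs whose coding sequences differ by at most 5 points of GC had a median rho of 0.224 (196 pairs), and those 15 or more points apart 0.0509 (47 pairs). RPS15, RPS2 and RPS9 have 62.99%, 61.8% and 60.5% GC, whereas RPS13 and RPS24 have 46.4% and 44.4%. The part of GC content in the relation was not tested.

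Other genes of the pathway were described from 4 lists. Factors that assemble the small subunit (40 genes, all present in the table) took 0.464% ± 0.102 of a cell's UMIs, and 2 of them, NHP2L1 (mean 15.9 UMIs) and the rRNA methyltransferase gene FBL (13), were seen in each cell. NOP58 had 7.50 UMIs. The summed share of the 40 genes had a rho of -0.344 with the small subunit share. Taken alone, NHP2L1 had 0.0221, FBL -0.0943 and NOP58 -0.135. Initiation factors that bind the subunit (22 genes) took 0.761% ± 0.101, led by EIF1 (38.8 UMIs), EIF3I (15.2) and EIF3E (14.1), with a rho of 0.106. GNB2L1, which encodes the scaffold RACK1 on the head of the subunit and is no member by name, had 19 UMIs in the lowest cell, 66.5 in the median and 136 in the highest, a level among the members, and a rho of 0.347. SERBP1, which clamps idle ribosomes, had 19.4 UMIs and EIF4EBP1, a target of mTOR, 13.9. Of the genes that encode ubiquitin, RPS27A gave 92.8 UMIs and UBB 38.5.

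The share of each row with a mean of at least 5 UMIs was set against the summed small subunit share. Small and large subunit genes were left out, but pseudogene rows of ribosomal proteins, such as RPS2P46, were kept. Over these 566 rows the median rho was -0.00365. The highest were CTD-2031P19.4 (0.434), AC138123.2 (0.426), GAPDH (0.410), TCEB2 (0.397) and RP4-604A21.1 (0.386). GAPDH is a glycolytic enzyme gene and TCEB2 encodes elongin B, while the other 3 are listed by clone names. The lowest were U2SURP (-0.631), HNRNPR (-0.555), PCNA (-0.504), RBM39 (-0.474) and HMGB2 (-0.458). U2SURP, HNRNPR and RBM39 encode factors of RNA splicing, PCNA the clamp of DNA replication and HMGB2 a chromatin protein. With the large subunit share the same genes had 0.409 to 0.518 and -0.665 to -0.408. A share of near 11% of a total lowers the shares of other genes as it rises, and these ranks are given as likeness over 76 cells.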

How the data were processed

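The authors deposited 1 table of whole-number UMI counts per gene and cell, not normalized. Tools named, with no role, are STAR 2.4.0a and cutadapt 1.2.1, with the build hg19 (GRCh37), per the submitters' processing notes. The sources used here do not say how UMIs were counted, with which annotation, or how reads matching several genes were treated. Protocol and column names describe UMI tags of different length. A row called GENE that repeats cell numbers (0.197% of the sum of all values) was left out, leaving 17513 gene and 80 spike-in rows. The 76 columns matched the samples by run name and cell number. No pair of cells was identical (highest correlation 0.859).

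A share is a gene's or list's percentage of the endogenous UMIs in that cell. Intervals are exact and cover counting error only. Dispersion was computed for genes with a mean of at least 1 UMI, with expectations from cell totals (spike-in totals for spike-ins), and was tested on simulated data. Members and lists were chosen with earlier results of these data known. Members are named, with the 3 highest genes of each list and the 5 most and least alike genes (mean of at least 5 UMIs). Some members and list genes are not reported here, though sums and counts over members include them. Subunit sites, the short start region motifs and GC content were added after the data were seen. Python 3.11.15, numpy 2.4.6, pandas 2.3.3 and scipy 1.17.1 were used. Alternatives covered scale, depth, detection, tag collisions, pseudogene rows and cells left out.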

Additional observations from a re-analysis of the deposited data

How the results depend on the processing

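Of 45 alternatives over 9 results, 39 left the value within 1 SD over cells, within 0.1 of a rho or within 1.5 times a count. The mean small subunit share was 17.1% of UMIs outside ribosomal protein and mitochondrial genes and 107% of spike-in UMIs, other denominators by construction. With 71 cells thinned to 10940 UMIs, 13 of 32 members in place of 28 lay above the highest spike-in dispersion (7.89% of genes did). The limit itself was then 2.304 in place of 2.196, and the same 71 cells unthinned gave 25 members at that limit. The median pairwise rho of members was 0.696 scaled by spike-in UMIs and 0.2998 by totals outside ribosomal protein and mitochondrial genes, against 0.176. The rho of small subunit counts with cell UMIs turned to 0.837 per spike-in UMI. Leaving out cell number 16, chosen after seeing the data, gave 23 members above the spike-in limit (16.4% of genes), which itself moved to 2.314, and a rho with cell UMIs of -0.425. No paired analysis was possible because the labels give 1 group.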
